A study of Mus musculus with 6 samples.

Results

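The terminal sugars of stomach mucins were followed here through 6 genes for enzymes that build or cap them: B4galnt3, B4galnt4, B4galnt2, B3galt5, A4gnt and Fut2. All 6 were found by symbol among the 23550 genes of the deposited table, and 5 of them passed the filter on low values, which kept 11738 genes. The 3 Riclin libraries came from the stomach of mice given Riclin, a soluble polysaccharide fibre, by gavage at 20 mg per kg for 14 days, and the 3 saline libraries from mice given saline by gavage in the same way. No transgene or deletion is labelled in either group, and the sources used here give neither strain, age nor pooling of animals. They do not say whether these mice received the ethanol used in another experiment of the study. The comparison addresses the mucosal defence barrier of the stomach.

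Mucins are proteins covered with sugar chains, and the last sugars added to a chain decide what binds to it. B4galnt3 and B4galnt4 each add N-acetylgalactosamine to a terminal N-acetylglucosamine and so make LacdiNAc, a terminus known from human gastric surface mucin. B3galt5 adds galactose to the same acceptor and makes the type 1 chain, the backbone of the Lewis a and Lewis b antigens. Fut2, the secretor enzyme, adds the fucose of the H antigen, A4gnt caps the chains of the gland mucin Muc6 with alpha-linked N-acetylglucosamine, and B4galnt2 makes the Sda antigen. In humans several of these termini are bound by, or act against, Helicobacter pylori.

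B4galnt3 and B3galt5 were chosen by their fold changes between Riclin and saline in these same libraries, which stood among the largest of named genes. Their differences are therefore described and not tested. The other 4 genes were added as enzymes of related termini, with results of these data already known. In B4galnt3 every Riclin library lay above every saline library, and in B3galt5 every Riclin library lay below. The order of the levels, in FPKM (fragments scaled to gene length and library size), was A4gnt and Fut2 highest, then B4galnt3, then B4galnt2 and B3galt5, with B4galnt4 last. Over the 6 libraries A4gnt averaged 55.9 and Fut2 49.9 FPKM, and these neighbours differed by less than the spread of A4gnt among Riclin libraries. B4galnt3 averaged 19.6 FPKM. B4galnt2 averaged 7.31 and B3galt5 5.60 FPKM, and their order changed between libraries. B4galnt4 averaged 0.163 FPKM.

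On GRCm38, the assembly that mm10 names, all 6 are protein-coding genes. B4galnt3 lies on chromosome 6 from 120203073 to 120294559 on the minus strand. B3galt5 lies on chromosome 16 from 96235801 to 96319859 on the plus strand. A4gnt lies on chromosome 9 from 99612502 to 99622367 and B4galnt4 on chromosome 7 from 141061104 to 141072400, both on the plus strand. Fut2 lies on chromosome 7 from 45648591 to 45666394 and B4galnt2 on chromosome 11 from 95865943 to 95914891, both on the minus strand. Exons of B4galnt3 overlap those of D330020A13Rik on the opposite strand over 169 bases, and exons of B4galnt2 overlap those of the antisense gene Gm11534 over 263 bases. The use of strand in counting is not stated, so reads from these stretches cannot be told apart. RefSeq gives B3galt5 3 start sites and B4galnt3 1, and the table holds 1 value per gene, so which B3galt5 start was used cannot be read from it. The 250 bases before each of these starts are shown because B4galnt3 and B3galt5 are the genes that differed. They were taken from RefSeq on GRCm38.p6, with each match to the GC box, the letters GGGCGG on either strand, in capitals.
B4galnt3, chr6:120294898-120295147, minus strand: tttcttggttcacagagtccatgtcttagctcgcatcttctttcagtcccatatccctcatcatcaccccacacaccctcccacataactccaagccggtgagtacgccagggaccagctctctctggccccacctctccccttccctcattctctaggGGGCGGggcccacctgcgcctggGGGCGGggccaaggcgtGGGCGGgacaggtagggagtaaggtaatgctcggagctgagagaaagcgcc
B3galt5 start 1, chr16:96235551-96235800, plus strand: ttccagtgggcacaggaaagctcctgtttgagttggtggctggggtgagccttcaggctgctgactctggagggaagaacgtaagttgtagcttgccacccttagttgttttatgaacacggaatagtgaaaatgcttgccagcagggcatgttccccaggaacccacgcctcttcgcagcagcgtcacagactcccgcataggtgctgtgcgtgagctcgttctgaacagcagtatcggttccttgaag
B3galt5 start 2, chr16:96273263-96273512, plus strand: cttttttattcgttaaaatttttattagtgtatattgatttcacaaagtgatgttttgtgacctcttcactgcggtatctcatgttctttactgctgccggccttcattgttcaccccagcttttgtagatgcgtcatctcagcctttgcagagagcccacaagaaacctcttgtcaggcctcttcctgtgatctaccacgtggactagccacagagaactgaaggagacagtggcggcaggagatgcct
B3galt5 start 3, chr16:96280782-96281031, plus strand: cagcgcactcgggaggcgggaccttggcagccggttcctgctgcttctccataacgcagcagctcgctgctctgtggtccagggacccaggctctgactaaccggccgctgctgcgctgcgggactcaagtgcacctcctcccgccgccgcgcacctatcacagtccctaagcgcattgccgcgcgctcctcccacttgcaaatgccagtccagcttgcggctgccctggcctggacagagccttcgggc

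The B4galnt3 window holds 3 GC boxes, beginning 91, 68 and 51 bases before the RefSeq start site, and 60.8% of its bases are G or C. That start lies outside the B4galnt3 position given above, which is from GENCODE M21 and ends at 120294559. The offsets hold for the RefSeq start only. The 3 B3galt5 windows hold none at a G or C share of 54.0, 45.2 and 67.2%, against a median of 52.4% over 32851 RefSeq promoter windows of that length. A GC box is found in 32.7% of those windows. The TATA box letters TATAAA, found in 12.4% of windows, and GTTAAT, the core of a site for HNF1, found in 6.43%, were searched on both strands too. Neither has a match in these 4 windows. In humans HNF1 factors are known to act on B3GALT5. Windows were matched for 5 of the 6 genes, all but Fut2. A match describes letters only.

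B4galnt3 was about 2-fold higher in the Riclin stomachs. Its levels were 23.2, 32.6 and 24.1 FPKM in Riclin replicates 2, 3 and 4, against 15.9, 10.8 and 10.9 FPKM in saline replicates 1, 2 and 4. The lowest Riclin library stood well above the highest saline library, saline replicate 1, and the highest of all was Riclin replicate 3. The means were 26.6 ± 5.20 FPKM in Riclin and 12.6 ± 2.92 FPKM in saline (SD, n = 3 each), 2.12-fold higher in Riclin, with a log2 fold change of 1.03 (SE 0.186) on the log2(FPKM + 1) scale. These levels rest on 5752 to 8682 reads in each Riclin library and 2239 to 4115 reads in each saline library, as recovered from the FPKM values. Of the 11738 genes tested, 52 had a log2 fold change at least as high, B4galnt3 included. B4galnt4, the other LacdiNAc enzyme, had 7, 13 and 31 reads in Riclin replicates 2, 3 and 4, against 15, 32 and 31 reads in saline replicates 1, 2 and 4. Its levels reached at most 0.221 FPKM in Riclin and 0.273 FPKM in saline, the groups overlapped, and it did not pass the filter, so it has no test. The plot of members by library shows these values.

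**Figure D1:**
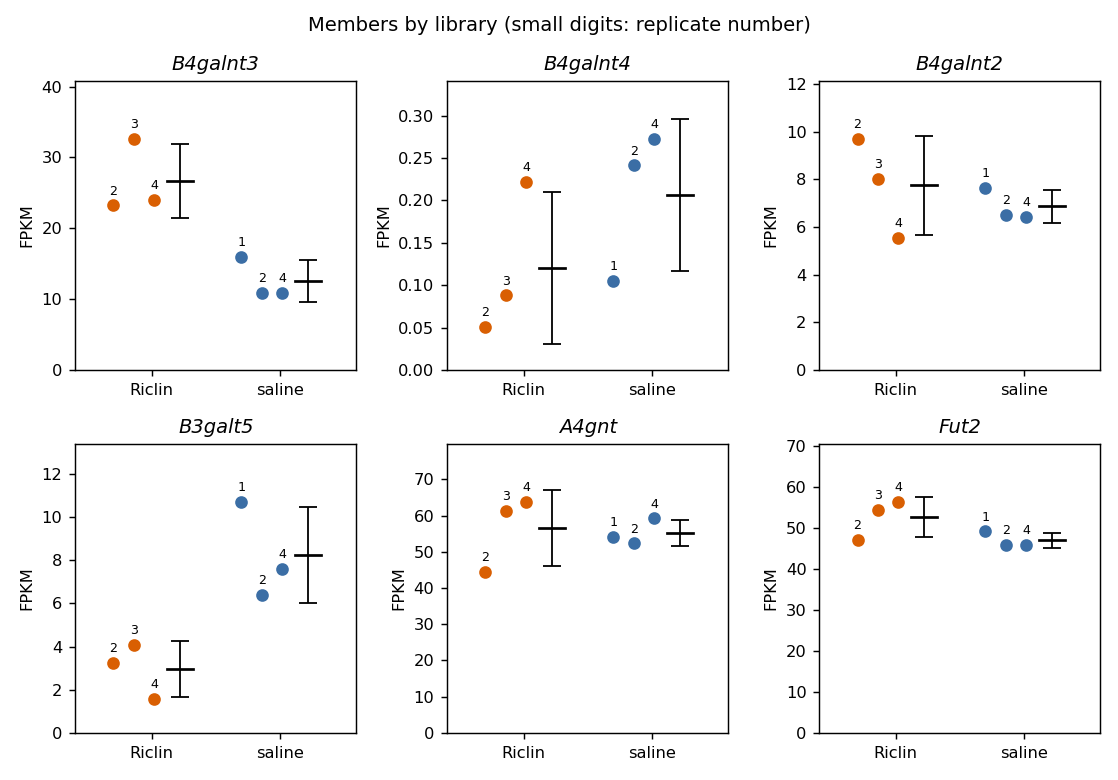
FPKM of each of the 6 genes in each library, Riclin left and saline right, each point a library with its replicate number and each bar the group mean with its SD (n = 3). B4galnt3 runs from 23.2 to 32.6 FPKM in Riclin and from 10.8 to 15.9 in saline, B3galt5 from 1.56 to 4.09 in Riclin and from 6.41 to 10.7 in saline, and the groups overlap in the other 4 genes.

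B3galt5 moved the other way. It measured 3.24, 4.09 and 1.56 FPKM in Riclin replicates 2, 3 and 4, against 10.7, 6.41 and 7.60 FPKM in saline replicates 1, 2 and 4. Riclin replicate 4 was the lowest library and saline replicate 1 the highest, and no Riclin library reached the lowest saline library. The means were 2.96 ± 1.29 FPKM in Riclin and 8.24 ± 2.23 FPKM in saline (SD, n = 3 each), 2.78-fold lower in Riclin. The log2 fold change was -1.25 (SE 0.269) on the log2(FPKM + 1) scale, which understates changes at such levels. The reads behind these values numbered 829, 1127 and 409 in the Riclin libraries and 2865, 1588 and 1613 in the saline libraries. At 54 genes, B3galt5 included, the log2 fold change was at or below this value.

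Since B4galnt3 and B3galt5 act on the same acceptor sugar, their transcripts were also set against each other within each library. There were 7.18, 7.97 and 15.4 times as many B4galnt3 as B3galt5 transcripts per unit length in Riclin replicates 2, 3 and 4, against 1.49, 1.69 and 1.44 times in saline replicates 1, 2 and 4. This ratio joins the values by which both genes were chosen, so it is a description of the libraries and no further evidence. B4galnt3 was the higher of the pair in all 6 libraries.

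The capping enzyme A4gnt and the secretor enzyme Fut2, the most abundant of the 6, differed little between the groups. A4gnt measured 44.5, 61.3 and 63.9 FPKM in Riclin replicates 2, 3 and 4, against 54.0, 52.3 and 59.2 FPKM in saline replicates 1, 2 and 4. Its saline libraries lay inside the Riclin range, and its log2 fold change was 0.021 (95% interval -0.34 to 0.38, limma adjusted p over all genes = 0.988). Its sign turned with median-of-ratios scaling, to -0.030. Only 957 of the 23550 genes had a higher mean level.

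Fut2 measured 47.2, 54.5 and 56.5 FPKM in Riclin replicates 2, 3 and 4, against 49.2, 45.9 and 45.9 FPKM in saline replicates 1, 2 and 4. Riclin replicates 3 and 4 lay above all saline libraries and Riclin replicate 2 lay among them. Its log2 fold change was 0.16 (95% interval -0.10 to 0.42, limma adjusted p over all genes = 0.869). In mouse Fut2 has a near relative in Sec1, on the same chromosome, whose highest level in any library was 0.16 FPKM.

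B4galnt2, which makes the Sda antigen, measured 9.70, 8.002 and 5.54 FPKM in Riclin replicates 2, 3 and 4, against 7.65, 6.52 and 6.43 FPKM in saline replicates 1, 2 and 4. Riclin held both the highest and the lowest library. Its log2 fold change was 0.13 (95% interval -0.29 to 0.54, limma adjusted p over all genes = 0.930), and it was -0.032 without Riclin replicate 2. The intervals of A4gnt, Fut2 and B4galnt2 all span 0, and these p-values do not show equal levels.

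None of the 5 genes tested passed an adjusted p of 0.05 by limma over all 11738 genes, a threshold that 0% of those genes passed. On recovered reads limma's voom called 0 genes as well. The smallest adjusted p over all genes was 0.156, and 693 genes, 5.90%, had an unadjusted p under 0.05. The groups did not overlap in 2 of the 5 genes, B4galnt3 higher and B3galt5 lower in Riclin. Over all genes tested the groups did not overlap with Riclin higher in 8.14% and with Riclin lower in 3.02%. A difference of at least 2-fold in mean FPKM, also found in these 2 genes, was seen with Riclin higher in 0.647% and with Riclin lower in 0.69% of all genes tested. As these were the genes chosen for that difference, nothing is read from their counts. Leaving out any of the 6 libraries moved the log2 fold change of B4galnt3 no lower than 0.88 (without Riclin replicate 3) and that of B3galt5 no nearer to 0 than -0.97 (without Riclin replicate 4), as the plot of fold changes under each setting shows. As the groups of these genes did not overlap, leaving out a library could not turn either sign.

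**Figure D2:**
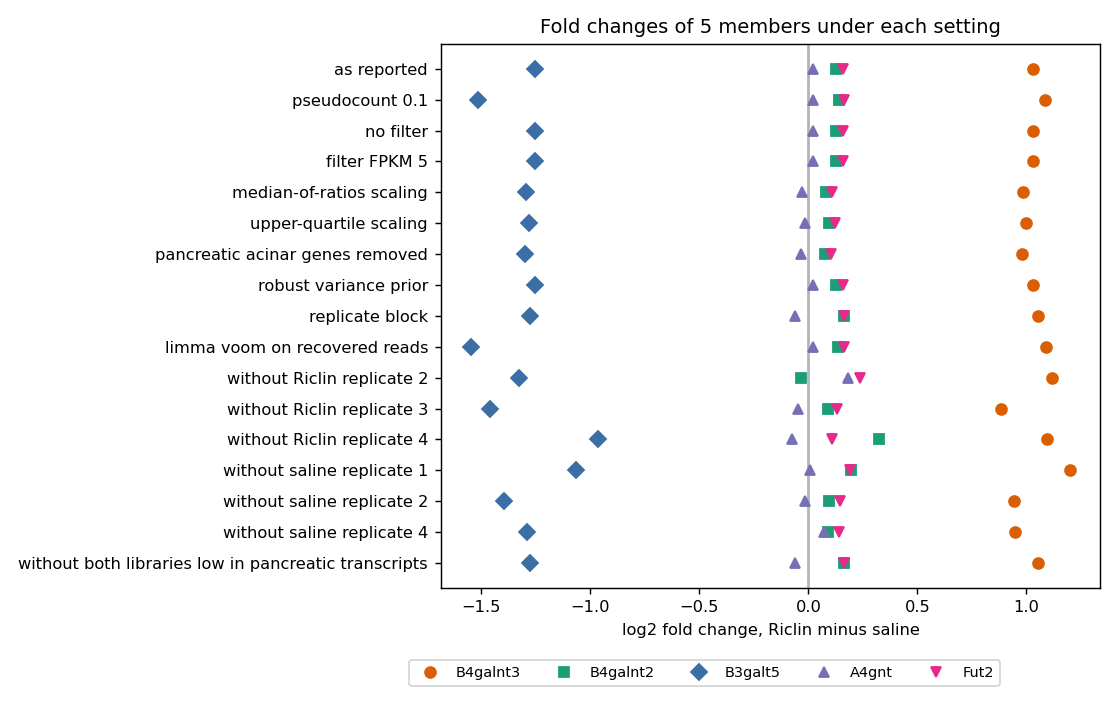
Log2 fold change, Riclin minus saline, of the 5 tested genes under each setting, with the value as reported in the top line. B4galnt3 stays between 0.88 and 1.20 and B3galt5 between -1.55 and -0.97, while A4gnt lies on both sides of 0.

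Some markers of stomach regions and cell types were higher or lower in the same libraries as these genes. In whole-tissue RNA, fewer cells of a type and less RNA per cell cannot be told apart. Gastrin (Gast), the hormone of the antrum, measured 420, 389 and 2.62 FPKM in Riclin replicates 2, 3 and 4, against 1037, 676 and 943 FPKM in saline replicates 1, 2 and 4. Pdx1, a transcription factor of the antrum and duodenum, measured 3.85, 4.29 and 1.93 FPKM in Riclin, against 6.51, 7.16 and 8.48 FPKM in saline. Both antral markers were thus lower in every Riclin library, as B3galt5 was, and Riclin replicate 4 was lowest in all 3 genes. Neither marker was at 0 in any library, and their summed level was 4.55 to 424 FPKM in Riclin and 683 to 1043 FPKM in saline.

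Per unit of Pdx1, the Riclin and saline libraries overlapped in B3galt5. B3galt5 stood at 0.840, 0.954 and 0.812 times the Pdx1 level in Riclin replicates 2, 3 and 4, against 1.65, 0.895 and 0.896 times in saline replicates 1, 2 and 4. Per 1000 FPKM of Gast there were 7.70, 10.5 and 596 FPKM of B3galt5 in Riclin, against 10.3, 9.48 and 8.06 FPKM in saline. The groups overlapped in this ratio, and Riclin replicate 4, where Gast was nearly absent, stood far above every other library. Per unit of 6 other markers, Muc5ac, Muc6, Atp4a, Pgc, Krt5 and Krt20, B3galt5 was lower in every Riclin library than in any saline library, though as the gene chosen for being lower this adds no evidence. It stood at 6.37 to 8.96 per 1000 FPKM of the surface mucin Muc5ac in Riclin and 18.8 to 23.1 in saline, and at 0.716 to 1.97 per 1000 FPKM of the proton pump gene Atp4a in Riclin and 4.23 to 6.16 in saline. The groups came close per unit of Muc6, at 0.0388 to 0.138 in Riclin and 0.140 to 0.319 in saline. They also came close per 1000 FPKM of Krt20, at 22.6 to 26.0 in Riclin and 27.8 to 55.8 in saline. Over all genes tested 61.3% had higher means on the log2 scale in Riclin, and in 3.02% Riclin was lower without overlap. The 7 surface mucous cell markers all had lower means on that scale in Riclin. Among them Krt20, a keratin of the gastric surface, did not overlap, at 136, 181 and 60.2 FPKM in Riclin replicates 2, 3 and 4, against 192, 202 and 274 FPKM in saline replicates 1, 2 and 4. Of the 5 tested mucous neck and antral gland markers 4 were lower. Among these Gkn3, a gastrokine of mucous cells, measured 333, 690 and 332 FPKM in Riclin, against 771, 726 and 1968 FPKM in saline, without overlap. Per 1000 FPKM of Gkn3 the groups overlapped in B3galt5, at 9.71, 5.94 and 4.71 FPKM in Riclin and 13.9, 8.84 and 3.86 FPKM in saline. Krt20 and Gkn3 were named after their values were seen, and the part of these markers in the B3galt5 difference was not tested.

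B4galnt3 was higher in every Riclin library per unit of each of 8 markers, Muc5ac, Muc6, Atp4a, Pgc, Gast, Pdx1, Krt20 and Gkn3. B4galnt3 was chosen for being higher in Riclin, and Gast, Pdx1, Krt20 and Gkn3 were lower in every Riclin library, so these ratios are a description and no further evidence. A4gnt, Fut2 and B4galnt2 were also higher in every Riclin library per unit of Gast, Pdx1, Krt20 and Gkn3. There were 64.3, 64.2 and 97.9 FPKM of B4galnt3 per 1000 FPKM of Muc5ac in Riclin replicates 2, 3 and 4, against 29.2, 31.8 and 33.1 FPKM in saline replicates 1, 2 and 4. Per 1000 FPKM of the pepsinogen gene Pgc the values were 0.396, 0.409 and 0.400 FPKM in Riclin, against 0.256, 0.333 and 0.257 FPKM in saline. The groups overlapped per unit of Krt5, a keratin of the squamous forestomach, at 0.554 to 1.17 in Riclin and 0.352 to 1.48 in saline. The 16 forestomach markers, of which none was at 0 in any library, summed to 808 to 1113 FPKM in Riclin and 179 to 1029 FPKM in saline, with saline replicate 1 lowest. Of their 13 tested members all 13 had higher means on the log2 scale in Riclin, against 61.3% of all genes tested. Of the 13, 0 passed the adjusted threshold. In 3 of them, Krt14, Krt6a and Krt17, Riclin was higher without overlap, against 8.14% of all genes tested. These 3 were named after their values were seen. The 6 parietal and chief cell markers summed to 64647 to 87525 FPKM in Riclin and 37765 to 68581 FPKM in saline, most of it Pgc. All 6 had higher means on the log2 scale in Riclin, against 61.3% of all genes tested. Riclin was higher without overlap in 8.14% of all genes tested and in 2 of these 6 markers. These were the potassium channel gene Kcnq1, at 43.5, 49.2 and 53.04 FPKM in Riclin replicates 2, 3 and 4 and 42.4, 37.2 and 32.04 FPKM in saline replicates 1, 2 and 4, and the intrinsic factor gene Cblif, at 1695 to 2034 FPKM in Riclin and 1030 to 1603 FPKM in saline. Both were named after their values were seen. The part of these markers in the B4galnt3 difference was not tested.

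Pancreatic and intestinal markers were also present in the libraries. The 21 pancreatic acinar markers summed to 444 FPKM in Riclin replicate 3 and 35029 FPKM in saline replicate 1. They summed to 90832.5 to 142625 FPKM in the other libraries, and 5 of them were at 0 in Riclin replicate 3 alone. Riclin replicate 3 and saline replicate 1 are called low in pancreatic transcripts below. B4galnt3 was highest in Riclin replicate 3 and, among saline libraries, in saline replicate 1. Its log2 fold change was 0.88 without Riclin replicate 3, 1.20 without saline replicate 1 and 1.05 without both. The part of pancreatic transcripts in the B4galnt3 difference was not tested. The 12 intestinal markers summed to 1156 to 1725 FPKM in Riclin and 1164 to 1353 FPKM in saline, most of it the apolipoprotein gene Apoa1. Of their 7 tested members 5 were lower and 2, Apoa1 and Apoa4, higher in Riclin on the log2 scale. Riclin was lower without overlap in 1 of these 7, the retinol-binding protein gene Rbp2, and in 3.02% of all genes tested. Rbp2 measured 75.1, 75.1 and 47.8 FPKM in Riclin replicates 2, 3 and 4, against 126, 79.03 and 132 FPKM in saline replicates 1, 2 and 4. The intestinal transcription factor gene Cdx2, which did not pass the filter, lay at 0.074 to 0.093 FPKM in Riclin and 0.22 to 2.08 FPKM in saline. The disaccharidase gene Sis and the transcription factor gene Cdx1 were at 0 in every library but saline replicate 4. Apoa4, Rbp2, Cdx2, Sis and Cdx1 were named after their values were seen, and the part of intestinal transcripts in the B3galt5 difference was not tested.

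A4gnt was set beside Muc6, the mucin whose chains its product caps. Muc6 measured 23.5, 34.7 and 40.3 FPKM in Riclin replicates 2, 3 and 4, against 33.6, 37.5 and 54.1 FPKM in saline replicates 1, 2 and 4. There was 1.89, 1.77 and 1.58 times as much A4gnt as Muc6 per unit length in Riclin, against 1.61, 1.39 and 1.09 times in saline, and the groups overlapped. Per unit of Muc5ac, Pgc and Krt5 the groups overlapped in A4gnt too. Per 1000 FPKM of Atp4a it was lower in every Riclin library, at 27.1 to 29.2 FPKM in Riclin and 31.0 to 46.5 FPKM in saline. Tff2, the trefoil peptide secreted with Muc6, measured 3139, 5414 and 1885 FPKM in Riclin, against 4281, 5294 and 11391 FPKM in saline. Muc5ac, the surface mucin, measured 361, 508 and 246 FPKM in Riclin, against 546, 341 and 329 FPKM in saline.

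Genes whose profile over the 6 libraries came nearest were ranked by the root mean square difference of the mean-centred log2(FPKM + 1) values, over 11346 tested genes with assigned names. The 6 points share their libraries, depth and mixture of tissue. They also hold the difference between Riclin and saline by which B4galnt3 and B3galt5 were chosen. Genes near either of these therefore differ in the same direction, which adds no evidence. Nearest to B4galnt3 were Irf9, a transcription factor, at 0.11, Lgals3bp, a secreted glycoprotein that binds galectins, at 0.11, and Rtp4, a receptor transporter protein, at 0.12. B4galnt3 itself varied by 0.56 on that scale. Irf9 measured 17.4, 26.9 and 20.7 FPKM in Riclin replicates 2, 3 and 4, against 13.5, 9.77 and 10.5 FPKM in saline replicates 1, 2 and 4. Like B4galnt3, it was highest in Riclin replicate 3 and, among saline libraries, in saline replicate 1. This order is not particular to these genes. Within each group B3galt5 and Muc5ac were highest in the same libraries, which were also the lowest of their groups in pancreatic acinar markers.

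Among the genes nearest to B3galt5, which varied by 0.72, were Phgr1, named for proline, histidine and glycine, at 0.19 and the glutathione transferase Gsta1 at 0.22. Phgr1 measured 61.5, 101 and 41.4 FPKM in Riclin replicates 2, 3 and 4, against 233, 132 and 122 FPKM in saline replicates 1, 2 and 4, with Riclin replicate 4 lowest and saline replicate 1 highest as in B3galt5. Pdx1, whose values stand above, ranked 11th at 0.30, while Gast, the other antral marker, stood at 2.25 and ranked 11315th. For A4gnt, which varied by 0.17, the nearest were Abhd8 at 0.053, Errfi1 at 0.057 and Lmnb1 at 0.060. Muc6 stood at 0.25 from A4gnt and ranked 8418th.

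**Figure D3:**
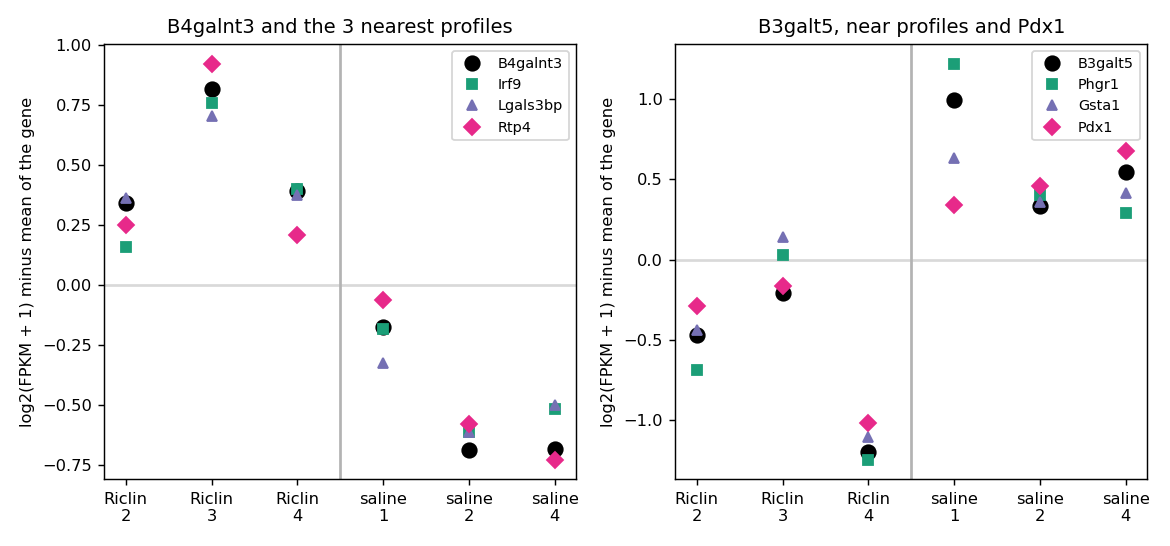
Mean-centred log2(FPKM + 1) in each library, Riclin left of the line and saline right, for B4galnt3 with its 3 nearest genes and for B3galt5 with Phgr1, Gsta1 and Pdx1. B4galnt3 and its nearest genes are highest in Riclin replicate 3, and B3galt5, Phgr1, Gsta1 and Pdx1 are lowest in Riclin replicate 4.

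Other genes of sugar chain synthesis were described through 6 lists, which are not limited to enzymes of mucins and include glycolipid enzymes. The lists were N-acetylgalactosamine and alpha-GlcNAc termini, beta-galactosyltransferases, fucosyl and blood group transferases, sugar-nucleotide supply, N-acetylglucosamine chain extension, and terminal sulfation. Of the 80 listed genes with a value, 58 were tested, and 0 passed the adjusted threshold by limma, while 6 had an unadjusted p under 0.05. Without the 6 members 53 were tested, 23 of them higher and 30 lower in Riclin. The median of their log2 fold changes was -0.0065. Over all 11738 genes the median was 0.040 and 61.3% were higher. The groups did not overlap in 3 of the 53, all with Riclin higher, against 8.14% of all genes tested with Riclin higher and 3.02% with Riclin lower. Groups of fewer libraries overlap less often. Without Riclin replicate 3 the counts were 5 higher and 10 lower, against 1186 higher and 1294 lower of all 11738 genes (21.1% in either direction). Without saline replicate 1 they were 11 higher and 2 lower, against 2538 and 587 of all genes (26.6%). Without both they were 13 higher and 11 lower, against 2820 and 1610 (37.7%). Leaving out any other library gave 3 to 6 higher and 0 to 4 lower, against 1343 to 1890 higher and 480 to 1046 lower of all genes.

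Those 3 genes were Galt, B4galt5 and Gcnt2, and none passed the adjusted threshold. Galt, an enzyme of galactose breakdown that releases UDP-galactose, measured 11.7, 9.09 and 12.8 FPKM in Riclin replicates 2, 3 and 4, against 7.94, 8.23 and 8.09 FPKM in saline replicates 1, 2 and 4. B4galt5, which makes lactosylceramide, measured 4.93, 5.69 and 6.13 FPKM in Riclin, against 4.12, 3.96 and 4.32 FPKM in saline, 1.35-fold higher in mean FPKM. Gcnt2, which branches poly-N-acetyllactosamine into the I antigen, measured 2.82, 2.72 and 2.35 FPKM in Riclin, against 2.08, 2.02 and 1.99 FPKM in saline. Exons of Galt and Gcnt2, but not of B4galt5, overlap annotated exons on the opposite strand, and reads from those stretches cannot be told apart. The saline libraries of all 3 genes lay close together, and each difference was below 1.5-fold.

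List by list, no call was made in either direction. Among N-acetylgalactosamine and alpha-GlcNAc termini 6 of 10 genes were tested, 5 higher and 1 lower (median log2 fold change 0.074). The lower one, B4galnt1, a ganglioside synthase, measured 28.5, 37.9 and 9.34 FPKM in Riclin replicates 2, 3 and 4, against 51.5, 35.2 and 21.9 FPKM in saline replicates 1, 2 and 4, and the groups overlapped. Of 10 tested beta-galactosyltransferases 6 were higher and 4 lower (median 0.029, but -0.016 with median-of-ratios scaling and -0.021 with pancreatic acinar genes removed), and B3galt5 was the lowest of them. Of 5 tested fucosyl and blood group transferases 4 were higher and 1, Fut8, lower (median 0.12). Sugar-nucleotide supply had 7 higher and 12 lower (median -0.030), and chain extension 4 higher and 6 lower (median -0.0059). Terminal sulfation had 1 higher and 7 lower (median -0.17). Its sulfate transporter Slc26a2 measured 6.96, 9.99 and 4.98 FPKM in Riclin, against 11.2, 8.49 and 14.4 FPKM in saline (limma adjusted p over all genes = 0.820). Slc26a2 and B4galnt1 were named after their values were seen.

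**Figure D4:**
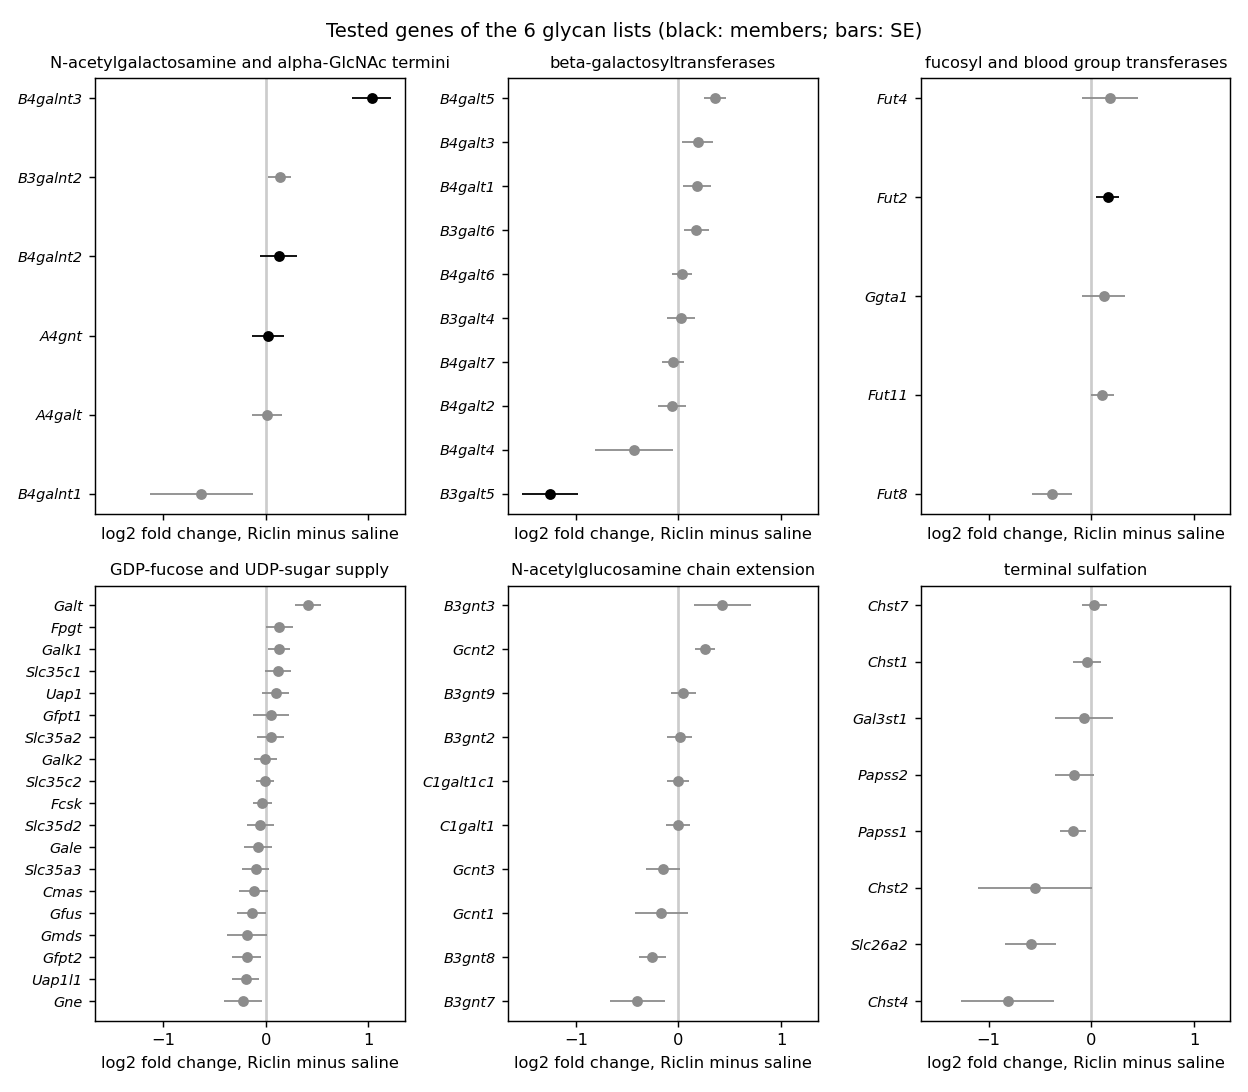
Log2 fold change, Riclin minus saline, with its SE for the 58 tested genes of the 6 glycan lists, the members in black and the other genes in grey. B4galnt3 at 1.03 and B3galt5 at -1.25, the genes chosen for this difference, lie at the ends, and the others run from -0.82 to 0.43.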

How the data were processed

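The authors deposited 1 table of FPKM values for 23550 gene symbols in 6 mouse stomach libraries, 3 Riclin and 3 saline. Per the submitters' processing notes the build was mm10 and Bowtie2 was used. The sources used here give no counting tool, annotation or strand setting. Groups come from the treatment label and replicate numbers from the titles. The labels do not say that libraries came from separate animals, so p-values measure the spread between these libraries. Because FPKM is a whole read number over gene length and library total, reads were recovered from the ratios between libraries for 99.7% of genes (relative tolerance 1e-09). Implied totals were 30884067 to 40050267 reads, so counting error is small beside library spread for all members but B4galnt4. The implied gene lengths differ from GENCODE M21, which was used for positions only.

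A filter kept genes that reached an FPKM of 1 in 3 or more libraries. They were tested on log2(FPKM + 1) by limma 3.58.1 (R 4.3.3) with an intensity trend, two-sided, with Benjamini-Hochberg adjustment over all genes tested, and the script was tested on simulated data. No set test was run. Members and lists were chosen with earlier results of these data known. The 6 members, Muc6, Muc5ac, Tff2, Gast and Pdx1 are named, with up to 5 listed glycan genes in each direction whose groups do not overlap and the 3 nearest profiles of B4galnt3, B3galt5 and A4gnt, of which 1 for B3galt5 is not reported here. Figures used matplotlib 3.10.9 (Python 3.11.15). Sequences are from RefSeq.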

Additional observations from a re-analysis of the deposited data

How the results depend on the processing

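Over 16 alternatives B4galnt3 stayed higher (log2 fold change 0.88 to 1.20) and B3galt5 lower (-1.55 to -0.97). Both were chosen for this difference and their groups did not overlap, so leaving out libraries could not turn either sign. The changed filters and the robust variance prior leave a fold change as it is. The replicate block and leaving out both libraries low in pancreatic transcripts give the same fold changes. Fut2 stayed higher (0.10 to 0.24), and none of the 5 tested members passed the adjusted threshold under any alternative. A4gnt, at 0.021 as reported, was -0.030 with median-of-ratios scaling, -0.015 with upper-quartile scaling, -0.035 with pancreatic acinar genes removed, and -0.060 both with the replicate block and without both libraries low in pancreatic transcripts. The cause was not tested. Leaving out each library gave -0.074 to 0.18 for A4gnt, -0.032 to 0.32 for B4galnt2, 0.88 to 1.20 for B4galnt3, -1.46 to -0.97 for B3galt5 and 0.11 to 0.24 for Fut2. The count of genes past the adjusted threshold, 0 as reported, was 2 with a robust variance prior and 0 to 1 with each library left out (1 without saline replicate 2), and no member was among them. The median over the 53 other glycan genes stayed between -0.069 and 0.028. The beta-galactosyltransferase median moved by more than its spread between libraries under 6 of 16 alternatives (-0.046 to 0.10).

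Replicate numbers 2 and 4 occur in both groups, but the labels do not say that a number pairs libraries. Deviations from the group means correlated across genes at 0.22 for number 2 and 0.011 for number 4, against 0.27 for Riclin replicate 2 with saline replicate 4 and 0.21 for Riclin replicate 4 with saline replicate 2, so equal numbers correlated no more closely than unequal ones, and genes are not independent replicates. Saline replicate 1 and Riclin replicate 3 have numbers that occur in 1 group only, so the replicate block takes these libraries out of the comparison. Its log2 fold changes are therefore those found without both libraries low in pancreatic transcripts. They were 1.05 for B4galnt3, -1.28 for B3galt5, 0.16 for B4galnt2 and 0.17 for Fut2, and 0 genes passed with the block. The filter at an FPKM of 5 and the others were all run. B4galnt4 has too few reads for a comparison at this depth.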
